A study of Rattus norvegicus with 12 samples.

Results

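The 8 genes described here encode proteins that draw leukocytes out of the blood: the CC chemokines Ccl2 and Ccl7, the CXC chemokines Cxcl1 and Cxcl2, the selectins Sele (E-selectin) and Selp (P-selectin), and the immunoglobulin-type adhesion molecules Icam1 and Vcam1. They were taken by gene name from a 1-colour Agilent expression array. All 8 were on the array, on 9 probes, and 7 of them entered the test among 29623 genes. The probe of Selp was not well above background on any of the 12 arrays and was not tested.

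RNA came from lumbar dorsal root ganglia, L4 to L6 per the labels, where the sensory axons of the sciatic nerve have their cell bodies. The animals were 24 male Sprague-Dawley rats of 180 to 220 g, 6 per group. In every group a 1 cm stretch of the left sciatic nerve had been cut out at the mid-thigh under anaesthesia, and ganglia were taken 0.5 h, 3 h, 6 h or 9 h later. Each time had 3 arrays. No age is given. The labels name neither uninjured nor sham-operated rats; later times are therefore set against 0.5 h, and the response to surgery and anaesthesia is shared by all groups. Which of the 6 rats supplied an array, or whether they were pooled, is not stated, so the p-values reflect only the spread of these 3 samples per time, which may be technical.

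Leukocytes leave the blood in steps. Selectins on activated endothelium slow them, chemokines held on the vessel wall activate their integrins, and Icam1 and Vcam1 then give those integrins a firm hold. Ccl2 and Ccl7 act mainly on monocytes through the receptor Ccr2, and Cxcl1 and Cxcl2 mainly on neutrophils through Cxcr2. The cytokines tumour necrosis factor and interleukin 1 induce these genes in endothelial and other cells through the transcription factor NF-kappaB. In ganglia after nerve injury Ccl2 is known as a product of injured sensory neurons as well.

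The genes lie in neighbouring pairs on the GRCr8 assembly of RefSeq. Ccl2 (chr10:67503077-67504875) and Ccl7 (chr10:67514095-67515945) are 9.2 kb apart with no gene start between them, and Cxcl2 (chr14:17465210-17467255) and Cxcl1 (chr14:17477542-17479321) are 10.3 kb apart, likewise with none. Sele (chr13:78935997-78945905) and Selp (chr13:79009379-79044994) are 63.5 kb apart, with 2 gene starts between them. Icam1 is at chr8:27829688-27841618 and Vcam1 at chr2:206723050-206742783. RefSeq promoter windows, which run 250 bases before and 50 after the gene start, were at hand for 6 of the 8 genes and not for Ccl2 or Selp.

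The promoter stretches below are shown because NF-kappaB is the textbook regulator that these genes share. Their highest means fell at different times here, and differences in course between them were not tested. Both strands were searched for the classical kappaB consensus, and also for the shorter letters GGANNTTCC, which the consensus can overlap. The consensus was found in the windows of 3 of the 6 genes (Cxcl1, Cxcl2 and Vcam1) and in 4.18% of all 33469 windows. GGANNTTCC was found in Ccl7, Cxcl1 and Icam1 and in 4.09% of all windows. Capitals mark the consensus in the first 3 sequences and GGANNTTCC in the fourth, with overlapping matches joined, each written 5′ to 3′ on the strand of its gene, and a match is only a match of letters.
Cxcl1, 120 to 21 bases before the start, chr14:17479342-17479441, minus strand: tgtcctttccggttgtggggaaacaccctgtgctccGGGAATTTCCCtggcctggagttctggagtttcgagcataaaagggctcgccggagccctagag
Cxcl2, 120 to 21 bases before the start, chr14:17467276-17467375, minus strand: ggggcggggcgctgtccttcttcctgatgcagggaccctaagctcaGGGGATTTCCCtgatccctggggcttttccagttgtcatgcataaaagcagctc
Vcam1, 120 to 21 bases before the start, chr2:206742804-206742903, minus strand: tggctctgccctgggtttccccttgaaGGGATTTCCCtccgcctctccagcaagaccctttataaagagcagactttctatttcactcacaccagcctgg
Icam1, 240 to 181 bases before the start, chr8:27829605-27829664, plus strand: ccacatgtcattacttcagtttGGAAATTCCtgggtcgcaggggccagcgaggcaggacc

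Levels are log2 of the deposited intensity minus the 75th percentile of the same array, so 0 is that percentile, and each probe is compared only with itself. The share of probes well above background was 82.3 to 85.3% at the later times and 63.2 to 67.5% at 0.5 h. All arrays of 0.5 h, of 3 h and of 9 h lay on 1 slide each and the 6 h arrays on another 2, so slide and time cannot be told apart, although the 3 h and 6 h slides were scanned on the same day. As a check of the tissue, all 14 sensory neuron markers listed passed the background test on each of the 12 arrays. In whole ganglia fewer cells of a type and less RNA per cell cannot be told apart.

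Sele was called lower at 3 h, on dim signal. Only 1 of the 3 arrays of 0.5 h had it well above background. Ccl2, Cxcl1, Sele and Icam1 then rose at 6 h relative to 3 h. All 4 chemokines had their highest mean at 9 h, and Sele and Icam1 had theirs at 6 h. At 9 h against 6 h, Ccl2, Ccl7 and Cxcl2 were called, and Cxcl1, Sele and Icam1 were not. No difference was called for Vcam1. Differences in course between genes were not tested. A limma adjusted p under 0.05 over all genes was called. In the test for any difference over the 4 times 5 of 7 genes were called (Ccl2, Ccl7, Cxcl1, Sele and Icam1), where 43.6% of all genes were called. The plot of levels by array shows these courses.

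**Figure D1:**
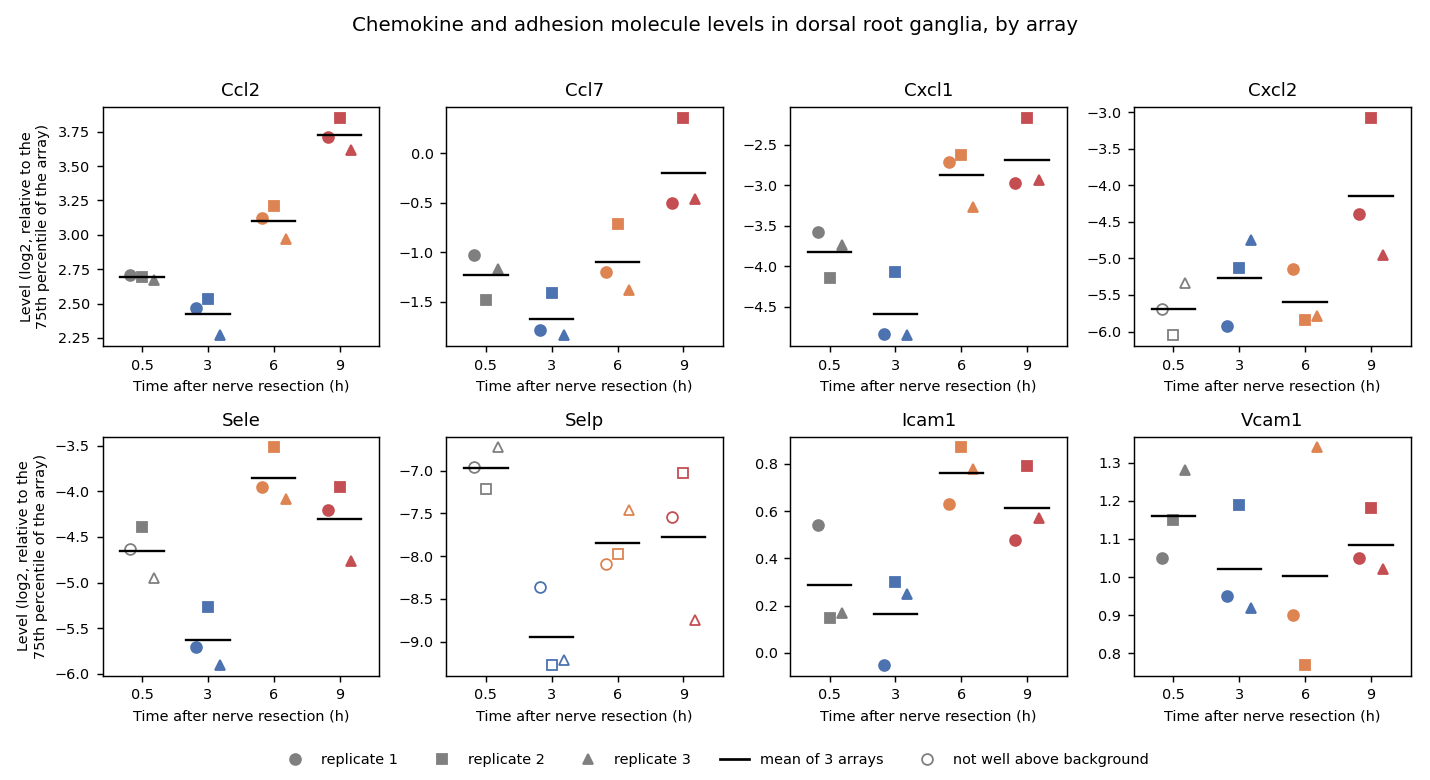
Level of each of the 8 genes on each of the 12 arrays (y axis, log2 relative to the 75th percentile of the array) against hours after nerve resection (x axis); symbols are the 3 replicates of a time, lines their mean, and open symbols were not well above background. The 9 h points of Ccl2 lie between 3.62 and 3.85, above all of its other points, Sele is lowest at 3 h, and every point of Selp is open.

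At 3 h against 0.5 h, 1 of 7 genes was called, Sele, which was lower; of all genes 13.0% were called lower and 9.69% higher. At 6 h against 0.5 h, 2 of 7 were higher (Ccl2 and Icam1), against 4.07% of all genes called higher and 9.31% lower. At 9 h against 0.5 h, 4 of 7 were higher, all of them chemokines, while 22.7% of all genes were called higher and 10.7% lower. Between consecutive later times, 4 of 7 were higher at 6 h against 3 h (Ccl2, Cxcl1, Sele and Icam1), where 5.93% of all genes were called higher and 4.45% lower. At 9 h against 6 h, 3 of 7 were higher (Ccl2, Ccl7 and Cxcl2), where 19.2% of all genes were called higher and 5.93% lower. Arrays of the 2 times did not overlap for 2, 4 and 4 of 7 genes at 3 h, 6 h and 9 h against 0.5 h. Over all genes these shares were 40.7, 37.1 and 48.7%. For 6 h against 3 h and 9 h against 6 h they were 5 and 3 of 7, beside 35 and 44.3%. A gap between the arrays of 2 times was thus common among all genes.

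The median log2 difference of the 7 genes from 0.5 h was -0.27 at 3 h, 0.41 at 6 h and 1.03 at 9 h. Over all genes these medians were 0.02, -0.04 and 0.10. With Cxcl2, which was not well above background at 0.5 h, set at its lower bound, the 9 h median was 0.70. The genes were not tested as a set, and the comparisons with 0.5 h share the same 3 arrays. Under another background correction (normexp) only 2 of the 14 calls made between times held, Ccl2 at 9 h against 0.5 h (adjusted p = 0.0256) and Cxcl1 at 6 h against 3 h (adjusted p = 0.02).

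**Figure D2:**
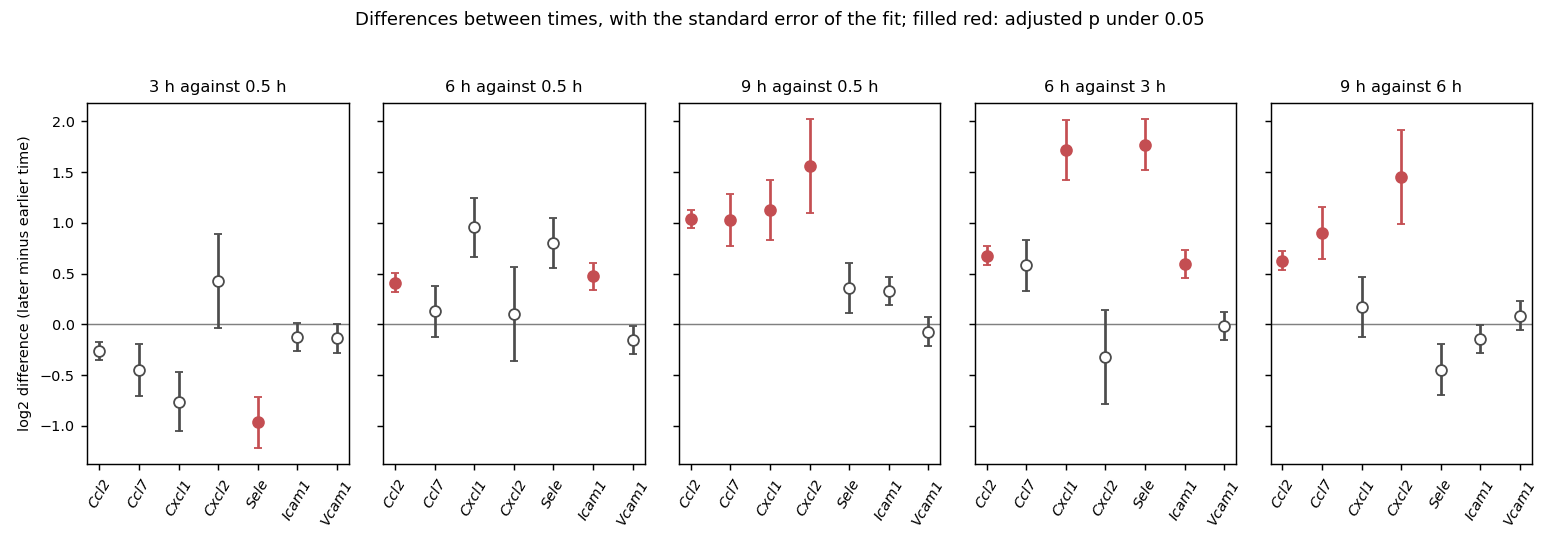
The log2 difference of each of the 7 tested genes (y axis, later minus earlier time) in the 5 comparisons (panels), with the standard error of the fit; red filled points had a limma adjusted p under 0.05. The 4 chemokines are the red points at 9 h against 0.5 h, and Cxcl1 and Sele stand highest at 6 h against 3 h.

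Ccl2, the main attractant of monocytes, was called in 4 of the 5 comparisons and had the smallest standard error of the 7 genes. Its level was 2.71, 2.69 and 2.67 at 0.5 h, 2.47, 2.53 and 2.27 at 3 h, 3.12, 3.21 and 2.97 at 6 h, and 3.71, 3.85 and 3.62 at 9 h. No 2 times overlapped: every 3 h array was below every 0.5 h array, and the 6 h and 9 h arrays stood above both. Its mean intensity was 26440 ± 2383 at 9 h and 12470 ± 453.5 at 0.5 h (SD, n = 3 each).

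Ccl2 rose by 1.04 ± 0.09 at 9 h against 0.5 h (log2 ± SE, 2.05-fold, limma adjusted p = 8e-05). It also rose between the later times, by 0.68 at 6 h over 3 h (adjusted p = 0.00128) and by 0.63 at 9 h over 6 h (adjusted p = 0.000647). The dip at 3 h against 0.5 h, -0.27 ± 0.09, missed the threshold (adjusted p = 0.0615). Relative to 0.5 h, the 6 h difference was 0.41 (adjusted p = 0.0174), and this call ended without 6 h replicate 1 (0.0563) or 6 h replicate 2 (0.0593). Ccl2 was spotted 10 times on each array, and the spots of an array had a median SD of 0.06 on the log2 scale, which covers the spotting and not the spread between samples.

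Ccl7, a second attractant of monocytes encoded next to Ccl2, had levels of -1.03, -1.48 and -1.17 at 0.5 h, -1.79, -1.41 and -1.84 at 3 h, -1.20, -0.71 and -1.38 at 6 h, and -0.50, 0.36 and -0.46 at 9 h. The 9 h arrays lay above all others, and replicate 2 was the highest of the 3 arrays at 3 h, at 6 h and at 9 h. Ccl7 rose by 1.03 ± 0.25 at 9 h against 0.5 h (2.04-fold, adjusted p = 0.0128), which held without any 1 array. From the 6 h level it rose by a further 0.90 at 9 h (adjusted p = 0.0272), a call that ended without 6 h replicate 1 (0.0771), 6 h replicate 3 (0.103) or 9 h replicate 2 (0.0722). The 6 h difference from 3 h was 0.58 (adjusted p = 0.185). A second probe, which shares 29 of its 60 bases with the first, gave 0.90 for 9 h over 0.5 h (adjusted p = 0.021) and 0.92 for 9 h over 6 h (adjusted p = 0.0237).

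Cxcl1, a neutrophil attractant, had levels of -3.58, -4.15 and -3.74 at 0.5 h, -4.83, -4.07 and -4.85 at 3 h, -2.71, -2.63 and -3.27 at 6 h, and -2.97, -2.17 and -2.94 at 9 h. All 6 h and 9 h arrays stood above all 0.5 h and 3 h arrays, and the 6 h and 9 h arrays overlapped. Its rise thus lay between 3 h and 6 h: 1.72 ± 0.29 (3.29-fold, adjusted p = 0.00511), with 0.17 at 9 h against 6 h (adjusted p = 0.712).

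Cxcl1 averaged -2.69 ± 0.45 at 9 h and -3.82 ± 0.29 at 0.5 h (SD, n = 3 each), a rise of 1.13 (2.18-fold, adjusted p = 0.0156). Leaving out 9 h replicate 2 (0.0525) or 0.5 h replicate 2 (0.055) ended this call. Its 6 h difference from 0.5 h was nearly as large, 0.96 ± 0.29, and missed the threshold (adjusted p = 0.0585), passing it without 3 h replicate 2 (0.0423) or 9 h replicate 2 (0.0443). The 3 h difference from 0.5 h was -0.76 (adjusted p = 0.0902), passing without 3 h replicate 2 (0.0384), the one 3 h array that lay within the 0.5 h range.

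Cxcl2, a close relative of Cxcl1 that acts on the same receptor, was dim. Its intensity was 38.2, 29.1 and 46.6 at 0.5 h, 31.8, 58.6 and 67.4 at 3 h, 56.8, 32.4 and 38.8 at 6 h, and 96.3, 236.4 and 63.2 at 9 h. None of the 0.5 h arrays was well above background and all 9 later arrays were. On the scaled levels the 9 h arrays lay above all 0.5 h and 6 h arrays, but 9 h replicate 3 (-4.95) lay below 3 h replicate 3 (-4.75), and 9 h replicate 2 (-3.08) stood far from the other 9 h arrays.

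The bound from each array's detection limit put Cxcl2 at least 1.63-fold higher at 9 h than at 0.5 h. Its adjusted p of 0.0278 (limma) belongs to the fitted difference, 1.56 ± 0.46, and not to that bound. The fitted difference rests on 0.5 h values that were not well above background. The call ended with quantile scaling (0.122), with cyclic loess scaling (0.0575) and in a fit of only these 2 times (0.0711). Without 9 h replicate 2 the fitted difference fell to 1.02, against 1.56 with it, and the call ended (0.0724), as it did without 0.5 h replicate 1 (0.0622) or replicate 2 (0.085). Over 6 h, the 9 h level rose by 1.45 ± 0.46 (2.73-fold, adjusted p = 0.045), which held only without 3 h replicate 1, 3 h replicate 3 or 9 h replicate 3; leaving out any of the other 9 arrays gave 0.0508 to 0.129. With all levels floored at the highest detection limit of the 12 arrays, a choice made after seeing the data, the differences were 0.65 (0.214) and 0.65 (0.247). Between 3 h and 6 h, where Cxcl1 rose, Cxcl2 gave -0.32 ± 0.46 (adjusted p = 0.694); the difference between these genes was not tested.

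Sele, which slows rolling leukocytes and is made almost only by activated endothelium, had levels of -4.63, -4.39 and -4.95 at 0.5 h, -5.70, -5.27 and -5.90 at 3 h, -3.95, -3.52 and -4.09 at 6 h, and -4.20, -3.95 and -4.76 at 9 h. The 3 h arrays were below all others and the 6 h arrays above all 0.5 h and 3 h arrays, while 6 h and 9 h overlapped. The signal was low, 139.1 ± 19.1 at 6 h and 40.2 ± 11.7 at 3 h in intensity units (SD, n = 3 each).

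Sele rose by 1.77 ± 0.25 at 6 h against 3 h (3.41-fold, adjusted p = 0.0017), and this held without any 1 array. With the common detection floor it was 0.85 (0.0328), and normexp ended the call (1.37, 0.355). At 3 h Sele was lower than at 0.5 h by a log2 difference of -0.97 ± 0.25 (0.51-fold, adjusted p = 0.0212). That fall rests on dim signal, since only 1 of the 3 arrays of 0.5 h was well above background, against all 3 of 3 h. Median local background ranged over 37 to 45 at the later times and 64 to 86 at 0.5 h. The call ended without 0.5 h replicate 1 (0.0545), 0.5 h replicate 2 (0.0701), 3 h replicate 1 (0.0651) or 3 h replicate 3 (0.0705), and with the common detection floor it was -0.13 (0.832). The 6 h difference from 0.5 h was 0.80 (adjusted p = 0.0608), passing without 9 h replicate 3 (0.0391), and the 9 h difference from 6 h was -0.45 (adjusted p = 0.221).

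Selp, which endothelium and platelets hold ready in granules, had intensities of 3.0 to 17.8 over the 12 arrays, none well above background. Its levels therefore carry no comparison between times.

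Icam1, the endothelial ligand of the leukocyte integrins that pair with Itgb2, had levels of 0.54, 0.15 and 0.17 at 0.5 h, -0.05, 0.30 and 0.25 at 3 h, 0.63, 0.87 and 0.78 at 6 h, and 0.48, 0.79 and 0.57 at 9 h. The 6 h arrays lay above all 0.5 h and 3 h arrays, and the 9 h arrays overlapped with both 0.5 h and 6 h. Icam1 rose by 0.59 ± 0.14 at 6 h against 3 h (1.51-fold, adjusted p = 0.0227). This call ended without 6 h replicate 2 (0.0783), 6 h replicate 3 (0.0791) or 3 h replicate 1 (0.0841).

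Icam1 was higher at 6 h than at 0.5 h by 0.47 (1.39-fold, adjusted p = 0.0489), close to the threshold. That call held without 0.5 h replicate 1 or 3 h replicate 1 and ended without any of the other 10 arrays (0.0514 to 0.14). The 9 h difference from 0.5 h was 0.33 (adjusted p = 0.0924), passing without 0.5 h replicate 1 (0.0319). Like Ccl2 it was spotted 10 times, with a median SD of 0.06 between the spots of an array.

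Vcam1, which holds the integrin of monocytes and lymphocytes, was bright on every array. Its level was 1.05, 1.15 and 1.28 at 0.5 h, 0.95, 1.19 and 0.92 at 3 h, 0.90, 0.77 and 1.34 at 6 h, and 1.05, 1.18 and 1.02 at 9 h, and all times overlapped. No comparison was called, and the test over the 4 times gave an adjusted p of 0.725. The 9 h difference from 0.5 h was -0.07 with a 95% interval of -0.39 to 0.24, and the 6 h difference from 3 h was -0.02 with an interval of -0.33 to 0.30. The interval of Ccl2 at 9 h against 0.5 h was 0.84 to 1.24. That of Icam1 at 6 h against 3 h was 0.29 to 0.90, which overlaps the interval of Vcam1. The difference between Vcam1 and these genes was not tested.

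Across the 12 arrays the levels of Ccl2, Ccl7 and Cxcl1 ran together, with Pearson's r of 0.92 for Ccl2 and Ccl7, 0.88 for Ccl2 and Cxcl1 and 0.86 for Ccl7 and Cxcl1. Cxcl1 also correlated with Sele and with Icam1 at 0.87 each. After the mean of each time was removed, Ccl7 and Cxcl1 still correlated at 0.91, and Ccl2 and Sele at 0.83. Cxcl2 correlated with Sele at only 0.11, and Vcam1 correlated with the other 6 at -0.09 to 0.12. These values are descriptions over 12 arrays that share times and slides.

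Among about 10550 genes with a proper symbol and signal well above background on all arrays, those most like each of the genes over the 12 arrays were also listed. Map2k3, a kinase of the p38 stress pathway, was the closest to Cxcl1 (r = 0.93) and to Sele (0.925), and Csf1, a growth factor of macrophages, was second for Cxcl1 (0.914). Ccl2 itself was the closest to Ccl7 (0.916), and Cdc42ep5 was the closest to Ccl2 (0.962). Prkd3 was the closest to Icam1 (0.964), Ddx17 to Cxcl2 (0.888) and Myl9, a myosin light chain of smooth muscle, to Vcam1 (0.873).

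Signalling genes upstream of the set were read on the brightest probe of each. There Nfkbia had the largest called difference of the NF-kappaB list in each comparison of 6 h or 9 h. Second probes gave larger differences for Rela at 9 h against 0.5 h (1.21, limma adjusted p = 0.00128) and for Nfkbiz at 9 h against 6 h (0.97, adjusted p = 0.00494). Those of Nfkb1 and Nfkb2 were not called in either comparison. Of the 15 tested subunits and regulators of NF-kappaB, 1 was higher (Rel) and 1 lower (Nfkbia) at 6 h against 0.5 h, beside 4.07% and 9.31% of all genes, and 5 were higher and 1 lower at 9 h against 0.5 h, beside 22.7% and 10.7%. The list's median was 0.06 and 0.18, beside -0.04 and 0.10 for all genes. Nfkbia encodes the inhibitor that holds NF-kappaB in the cytoplasm and is itself a target of NF-kappaB. Its level was 2.50, 2.12 and 2.33 at 0.5 h, 2.41, 2.34 and 2.34 at 3 h, 1.06, 1.03 and 1.19 at 6 h, and 1.51, 1.45 and 1.54 at 9 h. The 6 h arrays lay below all others, in a direction opposite to Cxcl1 and Sele at the same time.

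Nfkbia was lower at 6 h than at 3 h (-1.27 ± 0.09, adjusted p = 2.46e-05) and lower than at 0.5 h (-1.22, adjusted p = 0.000296). It rose by 0.41 at 9 h against 6 h (adjusted p = 0.00855). Each of these 3 calls held without any 1 array. Rel, an NF-kappaB subunit, was higher by 0.34 at 6 h against 0.5 h (adjusted p = 0.00701).

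Of 13 tested inflammatory cytokines and receptors, 2 were higher and none lower at 6 h against 3 h, and 3 were higher and none lower at 9 h against 0.5 h, where 5.93% and 22.7% of all genes were higher. The list's medians were 0.17 and 0.27, with -0.07 and 0.10 for all genes, and with dim genes at their bounds the second was 0.03. Il1b, interleukin 1 beta, had levels of -3.04, -3.54 and -3.30 at 0.5 h, -4.08, -3.42 and -3.00 at 3 h, -2.43, -2.64 and -2.51 at 6 h, and -2.86, -2.27 and -2.54 at 9 h. All 6 h arrays stood above all 0.5 h and 3 h arrays, the order also seen for Cxcl1.

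Il1b rose by 0.97 at 6 h against 3 h (adjusted p = 0.0384) and by 0.73 at 9 h against 0.5 h (adjusted p = 0.0493). The first call held without 0.5 h replicate 1, 0.5 h replicate 2, 3 h replicate 3, 9 h replicate 1 or 9 h replicate 2, and ended without any of the other 7 arrays (0.0506 to 0.114). The second held without 3 h replicate 1, 3 h replicate 3 or 9 h replicate 1, and ended without any of the other 9 (0.0503 to 0.15). A second probe of Il1b gave 1.13 (adjusted p = 0.041) and 1.08 (adjusted p = 0.0212). Myd88, the adaptor of the interleukin 1 and Toll-like receptors, was higher by 0.78 at 6 h against 0.5 h (adjusted p = 0.00364) and by 0.62 at 9 h against 0.5 h (adjusted p = 0.00272). Tnf was well above background on 2 of the 12 arrays and was not tested. Il6 was so only at 9 h and entered the test through those arrays alone. It was at least 2.30-fold higher there than at 6 h, a bound from the detection limits. Its p-value rests on 6 h values below background and is not given. The Il6 call was made in 10 of 12 alternative settings, with a difference as low as 0.

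**Figure D3:**
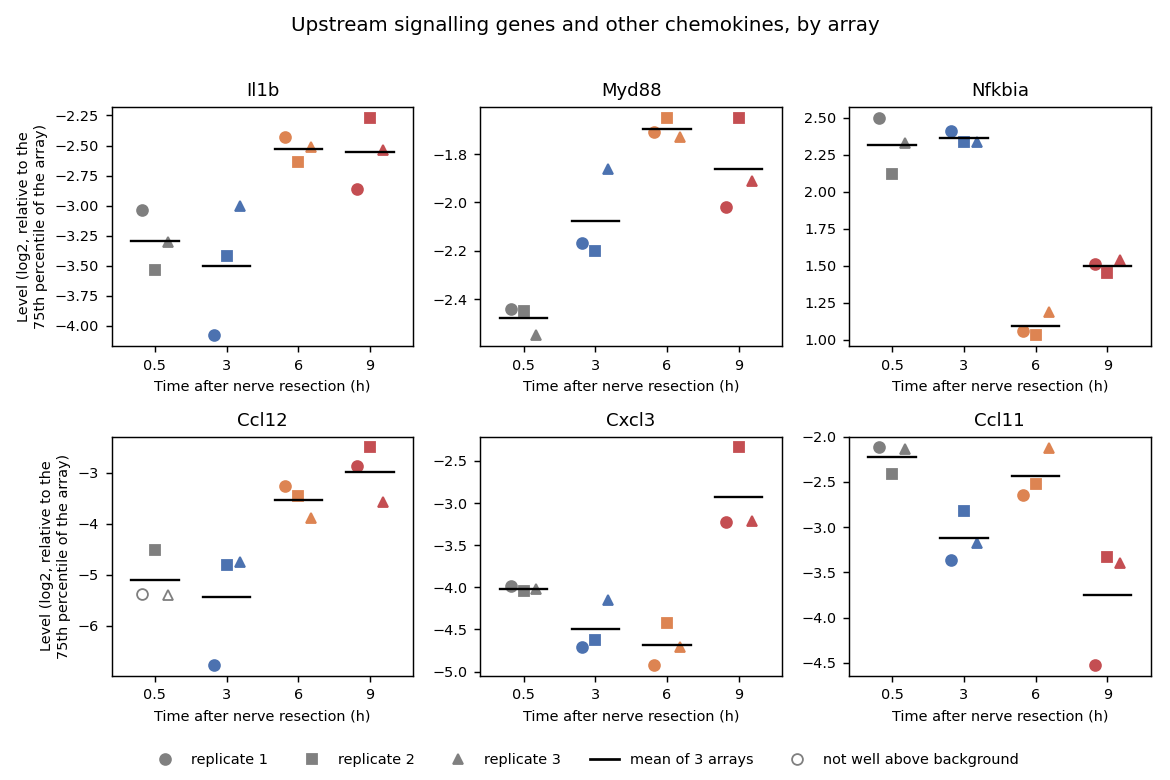
Levels of Il1b, Myd88, Nfkbia, Ccl12, Cxcl3 and Ccl11 on each of the 12 arrays (y axis, log2 relative to the 75th percentile of the array) against hours after nerve resection (x axis); symbols, lines and open points as in the plot of levels by array. The 6 h points of Nfkbia lie at 1.03 to 1.19, below all others, and the 9 h points of Cxcl3 at -3.22 to -2.34, above all others.

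Other chemokines were called about as often as genes at large, or less. Of 26 tested, 6 were higher and 1 lower at 9 h against 0.5 h, where 22.7% of all genes were higher and 10.7% lower, with a median of 0.28, or 0.05 with dim genes at their bounds, beside 0.10 for all genes. Cxcl3, a neutrophil attractant of the Cxcl1 group, had levels of -3.99, -4.04 and -4.02 at 0.5 h, -4.71, -4.63 and -4.15 at 3 h, -4.92, -4.42 and -4.71 at 6 h, and -3.22, -2.34 and -3.21 at 9 h. Its 9 h arrays lay above all others, and it rose by 1.76 at 9 h against 6 h (adjusted p = 0.000434).

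Ccl12, which in mice binds the same receptor as Ccl2, was higher by 2.11 at 9 h against 0.5 h (adjusted p = 0.0125) and by 1.91 at 6 h against 3 h (adjusted p = 0.0452). The second of these calls held without 3 h replicate 2, 3 h replicate 3 or 9 h replicate 3. It ended without any of the other 9 arrays (0.0513 to 0.114). At 0.5 h only replicate 2 had Ccl12 well above background, so the difference from 0.5 h rests partly on dim signal. Ccl11, an eosinophil attractant, moved the other way and was lower at 9 h against 0.5 h (-1.53, adjusted p = 0.00379). Ccl3 was higher by 1.26 at 6 h against 0.5 h (adjusted p = 0.0351), which ended without 0.5 h replicate 1 (0.0965), 0.5 h replicate 2 (0.0796), 6 h replicate 1 (0.0733), 6 h replicate 2 (0.0814) or 6 h replicate 3 (0.107).

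The receptors for these chemokines were often dim. Of 24 listed, 13 were tested and 5 of those passed the background test on every array. Of the 13, 6 were higher at 9 h against 0.5 h, beside 22.7% of all genes, with a median of 0.78 that became 0 when genes dim at 0.5 h were set at their bounds. Among them Cxcr5 was at least 1.58-fold and Ccr7 at least 1.28-fold higher, bounds from the detection limits. Neither was well above background on any 0.5 h array. Their p-values rest on those 0.5 h values and are not given. Ccr2, the receptor of Ccl2 and Ccl7, was well above background on 8 arrays, none of them at 0.5 h, with 0.78 at 9 h against 0.5 h (adjusted p = 0.138). No probe carried the name Cxcr2.

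The leukocyte ligands of the adhesion molecules showed little. The 10 tested had a median of 0.22 at 9 h against 0.5 h, or 0.04 at bounds, beside 0.10 for all genes. Of them 1 was higher and none lower there, beside 22.7% and 10.7% of all genes. That gene was Itgb1, a widely expressed integrin chain, and its 2 probes disagreed: 0.49 for the brighter one (adjusted p = 0.00101) and -0.63 for the other (adjusted p = 0.00056). Itgam at 6 h against 3 h gave 1.36 (adjusted p = 0.193) and Itgb2 gave 0.73 (adjusted p = 0.229), both integrin chains that hold Icam1. Selplg, the ligand of the selectins, gave 0.82 at 9 h against 0.5 h (adjusted p = 0.3) and was not well above background at 0.5 h.

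Other vascular adhesion molecules had no more calls than genes at large when 9 h was compared with 0.5 h. By 3 h, relative to the same 0.5 h arrays, a larger share of them was called higher. There 3 of the 13 tested were higher and 1 lower, beside 9.69% and 13.0% of all genes. Of 13 tested, 2 were higher and 1 lower at 9 h against 0.5 h (22.7% and 10.7% of all genes), with a median of 0.21, or 0.13 at bounds. Cdh5, the cadherin of endothelial junctions, was higher by 0.50 at 9 h against 0.5 h (adjusted p = 0.00254) and lower at 6 h against 3 h (-0.45, adjusted p = 0.0106). A second probe of Cdh5 gave 0.51 (adjusted p = 0.227) and 0.01 (adjusted p = 0.994). Alcam was lower at 9 h against 0.5 h (-0.45, adjusted p = 0.00174).

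Lists of markers of the cells that carry or receive these signals were also compared between times. Of 15 endothelial markers, 6 were higher at 9 h against 0.5 h and none lower, beside 22.7% and 10.7% of all genes. Their median was 0.30, or 0.22 at bounds, beside 0.10 for all genes. At 6 h against 3 h none was higher and 2 were lower, beside 5.93% and 4.45% of all genes. The median there was -0.08, beside -0.07 for all genes. Second probes of Tek, Flt1 and Sox18 were higher at 9 h against 0.5 h (limma adjusted p = 0.000761, 0.00739 and 0.0453). That of Sox17 was lower there (-1.18, adjusted p = 0.00166) and higher at 6 h against 3 h (1.05, adjusted p = 0.00735). Those of Cdh5, Tie1 and Vwf were not called in either comparison. The endothelial list itself uses the brightest probe of each marker. The mean of that list, each gene centred on its mean over the 12 arrays, was -0.11 to -0.02 at 0.5 h, -0.06 to 0.01 at 3 h, -0.21 to -0.04 at 6 h and 0.11 to 0.36 at 9 h. At 6 h, when Sele and Icam1 had their highest means, the list means overlapped those of 0.5 h and 3 h. At 9 h, when the chemokines had risen, all 3 arrays had a higher list mean than any other array. The part of endothelial cell content in the 6 h and 9 h results was not tested.

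The mean of the neutrophil markers was highest on 1 array of 6 h, and on all 9 h arrays it stood above every 0.5 h and 3 h array. Not every marker did so: S100a8 was 0.91 on 0.5 h replicate 3 and 0.73 on 9 h replicate 3. Only 6 of the 11 were well above background on all arrays, so this mean includes genes dim at 0.5 h. Their median at 9 h against 0.5 h was 0.60, or 0.48 at bounds. The mean of 11 such genes was -0.60 to 0.12 at 0.5 h, -0.68 to -0.28 at 3 h, -0.39, -0.37 and 1.73 at 6 h, and 0.34 to 0.73 at 9 h. The lists of red blood cell and lymphocyte markers were also highest on 6 h replicate 3, at 1.01 and 0.76, against -0.53 to 0.39 and -0.37 to 0.36 on the other 11 arrays. S100a8, a granulocyte calcium-binding protein, was 2.91 on 6 h replicate 3, against -0.65 to 1.25 on the other 11 arrays. On that array Ccl2, Ccl7, Cxcl1 and Sele had their lowest level of the 3 arrays of 6 h, so their 6 h means were higher without it. At 9 h, replicate 2 had the highest mean of the chemokines and adhesion molecules (0.97), of endothelial markers (0.36) and of neutrophil markers (0.73).

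Of the neutrophil markers 1 of 11 was called higher at 9 h against 0.5 h, beside 22.7% of all genes. None was called higher at 6 h against 0.5 h, beside 4.07% (limma, 1 at an unadjusted p under 0.05). Monocyte and macrophage markers, 15 tested, had list means of -0.35 to 0.05 at 0.5 h, -0.64 to 0.22 at 3 h, -0.17 to 0.35 at 6 h and -0.21 to 0.28 at 9 h, which overlapped between all times. Of these, 1 was higher and 1 lower at 9 h against 0.5 h, beside 22.7% and 10.7% of all genes. Skeletal muscle and adipocyte markers varied widely within each time, with list means of -1.46 to 2.02 and -1.8 to 1.5 over the 12 arrays and medians of 1.03 and 1.44 at 9 h against 0.5 h. Of these, none of 13 and 1 of 5 were called higher there, beside 22.7% of all genes (limma, 0 and 1 at an unadjusted p under 0.05). The part of all these cells in the chemokine levels was not tested.

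**Figure D4:**
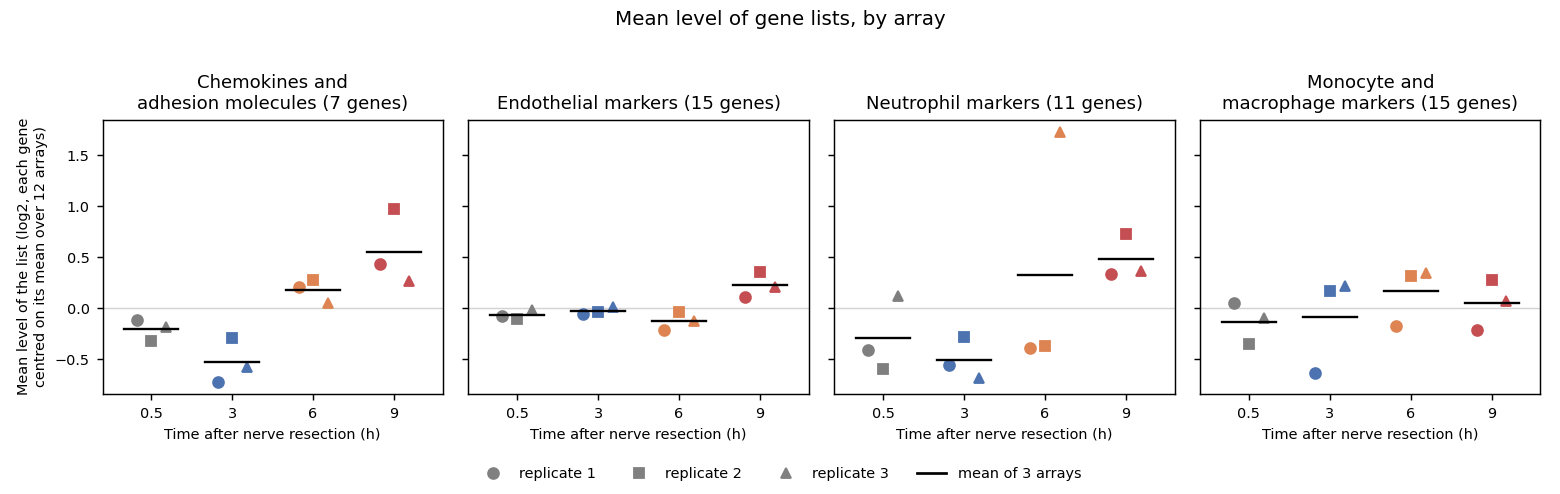
Mean level of the 7 tested chemokines and adhesion molecules and of 3 marker lists on each of the 12 arrays (y axis, log2, each gene centred on its mean over all arrays) against hours after nerve resection (x axis); symbols are replicates and lines the mean of a time. The neutrophil panel has 1 array of 6 h at 1.73, while the chemokines and adhesion molecules on that array are at 0.05, the lowest of the 6 h points.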

How the data were processed

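Expression was measured on 12 Agilent 1-colour arrays (Cy3), 3 per time. The deposited intensity of each spot is the processed signal of Agilent Feature Extraction 10.5.1.1, background-corrected by the scanner software per the file headers, and the deposited series table held the same values. From there, control spots (1639 of 45018) and outlier spots (76 to 218 per array) were left out, log2 intensities were centred on the 75th percentile of the array, and spots of a probe were averaged. A probe was kept if every array of 1 or more times had it well above background (34837 of 41012), and the brightest stood for its gene. No spot was saturated.

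The 4 time means were fitted over all 29623 genes with limma 3.58.1 (lmFit, eBayes) in R 4.3.3, with Benjamini-Hochberg adjustment per comparison and a threshold of 0.05. The ± of a difference is its standard error. The fit was tested on simulated data. For a gene dim on every array of a time, the fold is a lower bound from each array's detection limit. There were 5 slides and 3 scan days. The time points share replicate numbers that nothing in the labels ties together, so no block was used. The members and lists were chosen with earlier results of these data known, and the motifs with the sequences in view. Named are all members, the 3 genes most like each, genes among the up to 3 largest called differences of a list and comparison, and genes of fixed interest such as Il1b and Nfkbia. Alternatives were 13 settings and leaving out each of the 12 arrays.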

Additional observations from a re-analysis of the deposited data

How the results depend on the processing

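Of the 7 genes, 1 was called at 3 h against 0.5 h. This became 0 with normexp or the common detection floor, 2 (Sele and Ccl2) with quantile scaling, cyclic loess, a variance trend or the replicate block, 2 of 8 (Sele and Selp) with no filter on dim probes, under which Selp also entered, 4 with slide as a random block, and 0 to 2 when arrays were left out in turn. The 2 called at 6 h against 0.5 h became 0 with normexp, 1 with quantile scaling, the mean over probes, only the 2 times compared or the floor, 4 with median scaling, no filter or the slide block, and 0 to 2 when arrays were left out. The 4 called at 9 h against 0.5 h became 1 with normexp, 3 without Cxcl2 with quantile scaling, cyclic loess, only the 2 times or the floor, 5 with Icam1 under the slide block, and 2 to 4 when arrays were left out. The 4 at 6 h against 3 h became 1 with normexp and 3 to 4 when arrays were left out. The 3 at 9 h against 6 h became 0 with normexp, 1 with median scaling, only the 2 times compared or the floor, and 1 to 3 when arrays were left out. The 5 called over the 4 times became 2 with normexp and 5 to 6 when arrays were left out. No member changed the sign of a called difference in any of these settings. The causes were not tested. Among listed genes, signs turned for Il6 at 3 h against 0.5 h (0.94 with quantile scaling, 0.12 with cyclic loess) and at 6 h against 0.5 h (0.73 with normexp, 0.79 with quantile scaling, 0.091 with cyclic loess), and for Xcr1 at 6 h against 0.5 h (0.61, 0.90 and 0.24 in the same 3 settings). They also turned for Itgb1 at 9 h against 0.5 h (-0.067 as the mean over probes), Cdh5 at 6 h against 3 h (0.075 with normexp) and Jam2 at 9 h against 6 h (0.041 with probes detected on all 12 arrays).

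Replicate numbers did not pair the arrays: deviations from the time means correlated at -0.133 to 0.223 for the same number and -0.23 to 0.199 for different numbers. With the replicate block Cxcl2 lost its 9 h calls (adjusted p = 0.0507 against 0.5 h, 0.0774 against 6 h) and Icam1 its 6 h call against 0.5 h (0.0756), while Ccl2 gained its 3 h call against 0.5 h (0.0286) and Sele gained calls at 6 h and 9 h against 0.5 h (0.00496 and 0.0197) and at 9 h against 6 h (0.00816). Over all genes the median difference at 9 h against 6 h was 0.11, and -0.10 with median scaling, and the share of calls that were higher was 76.4%, against 37% with median, 47.2% with quantile and 55.5% with cyclic loess scaling. At 6 h against 0.5 h that share was 30.4%, against 58.1, 55.6 and 55.8%; at 9 h against 0.5 h it was 68%, against 46.8, 53.5 and 58.4%; at 3 h against 0.5 h 42.6%, against 60.4, 53.5 and 50.4%; at 6 h against 3 h 57.1%, against 65.5, 63.3 and 69%. With normexp 684, 1, 422, 320 and 163 genes were called at 3 h, 6 h and 9 h against 0.5 h, 6 h against 3 h and 9 h against 6 h, where the fit as reported called 6731, 3963, 9881, 3075 and 7448. Slide as a random block called 13845, 9073, 16879, 7928 and 12504. Without a filter 11482 and 8981 genes were called at 3 h and 6 h against 0.5 h, and with only the 2 times compared 4469 and 2488; cyclic loess called 6457 at 6 h against 0.5 h and the filter on all 12 arrays 4515 at 9 h against 6 h. Leaving out 1 array took the count at 6 h against 0.5 h as low as 2165 and that at 6 h against 3 h as low as 1648. Cxcl2, Sele and Selp are limited by signal over background, most of all at 0.5 h.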
